A study of Homo sapiens with 6 samples.

Results

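The genes described here encode the machinery that writes N6-methyladenosine (m6A) into RNA: the catalytic subunit METTL3, its partner METTL14, the associated subunits WTAP, VIRMA, ZC3H13, RBM15, RBM15B and CBLL1, and the separate methyltransferase METTL16. They were taken by name, and their members in the data are all m6A peaks that touch the RefSeq body of the gene on GRCh38, on either strand. These 9 of 20033 coding genes held 31 of 9206 peaks in the control list, 13 of 2736 in the shTRA2A list and 25 of 5433 in the shMETTL3 list. The peaks come from cells of the human glioblastoma line U-251 MG carrying a control short hairpin RNA (shNC), a hairpin against TRA2A, an SR-like splicing regulator, or a hairpin against METTL3. Fragmented total RNA was immunoprecipitated for m6A and sequenced beside its input, in 1 immunoprecipitated and 1 input library per condition, 6 libraries in all. Each condition is 1 peak list, so no difference below has a replicate check and none was tested. Read depth per library was unknown, and the labels name neither a clone nor a hairpin sequence.

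m6A is placed on nascent messenger RNA by the METTL3-METTL14 heterodimer, in which METTL3 transfers the methyl group from S-adenosylmethionine and METTL14 supports RNA binding. WTAP holds the heterodimer in nuclear speckles, VIRMA is the large scaffold of the associated subunits, ZC3H13 keeps the complex in the nucleus, and RBM15 and its paralogue RBM15B bind RNA and help to choose sites. METTL16 works outside this complex and methylates the U6 small nuclear RNA and hairpins in the MAT2A transcript. The question the peak lists address here is whether the transcripts of the writers themselves carry m6A peaks, and which of these peaks are found when TRA2A or METTL3 is targeted.

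Most writer genes carried an m6A peak in the control cells. A peak touched 8 of the 9 genes in shNC (88.9%, exact Clopper-Pearson 95% interval 51.8 to 99.7%), against 22.0% of all coding genes. In shTRA2A 4 of the 9 were touched (44.4%, 13.7 to 78.8%), against 9.55% of coding genes, and in shMETTL3 6 of 9 (66.7%, 29.9 to 92.5%), against 17.1%. These intervals cover counting error alone and treat genes as independent. The shares of coding genes count every RefSeq coding gene, whether or not its RNA was present in these cells. They are not matched for expression or gene length, so the contrast with the writer genes may be overstated. Peaks in the writer genes made up 0.337% of the control list (0.229 to 0.478%), 0.475% of the shTRA2A list (0.253 to 0.811%) and 0.460% of the shMETTL3 list (0.298 to 0.679%). These intervals overlap, and they treat peaks of the same gene as independent. ZC3H13 alone held 9 of the 31, 8 of the 13 and 13 of the 25 writer peaks. Peaks show that an RNA was recovered and enriched, not how abundant it was, so a missing peak and a less abundant transcript cannot be told apart.

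**Figure D1:**
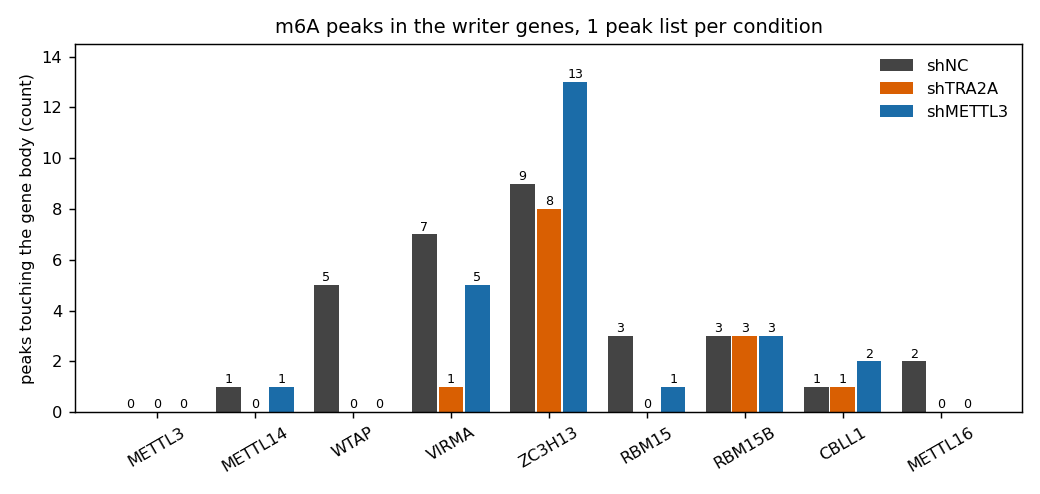
Number of peaks touching each gene body (vertical axis, count) in the shNC, shTRA2A and shMETTL3 lists, with 1 list per condition and therefore no error bars. ZC3H13 stood at 9, 8 and 13 peaks, WTAP at 5, 0 and 0, and METTL3 at 0 in every list.

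The counts fall into 3 patterns. ZC3H13, VIRMA, RBM15B and CBLL1 had peaks in every list, METTL14 and RBM15 had peaks in shNC and shMETTL3, and WTAP and METTL16 had peaks in shNC alone. Of the 8 genes with a control peak, 4 also had an shTRA2A peak (interval 15.7 to 84.3%), against 28.7% of all 4398 coding genes with a control peak. An shMETTL3 peak was found in 6 of the 8 (34.9 to 96.8%), against 48.6%. Both intervals include the share over all genes. The 4 genes with an shTRA2A peak all had an shMETTL3 peak. These patterns depend on list length and peak shape. With each list limited to its best 2736 peaks, 4 of the 9 genes were touched in shNC, 4 in shTRA2A and 5 in shMETTL3. Of all 20033 coding genes, 1755, 1914 and 2041 were touched at this setting. METTL14 and METTL16 then had no peak in any list, RBM15 had a peak in shMETTL3 alone, and CBLL1 lost its control peak, while WTAP kept 2 control peaks, 1 of them on the opposite strand, and none in the knockdowns. With peaks of regular shape alone (1 block, a multiple of 25 nt wide, at most 1000 nt), VIRMA and CBLL1 had no shTRA2A peak and METTL14 no control peak. Of all coding genes, 3757 had a regular peak in shNC, 1312 in shTRA2A and 2508 in shMETTL3.

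The catalytic pair had few peaks or none. METTL3 (chr14:21498138-21511340) had no peak in any list, so the lists give no check of its hairpin. Over all coding genes, expressed or not, having no peak was the common case: 22.0% had one in shNC, 9.55% in shTRA2A and 17.1% in shMETTL3. The share among expressed genes was not determined, and every other writer gene had a control peak. METTL14 (chr4:118685392-118715430) had 1 control peak at chr4:118687989-118689396, 1408 nt wide, with a score of 10.6, rank 6184 of 9206. The score is the value that the authors' peak caller gave each peak. Its scale is unstated, so it is used to rank peaks within a list and never between lists. METTL14 had no shTRA2A peak and 1 shMETTL3 peak of 75 nt at chr4:118697200-118697274 (score 8.15, rank 2996 of 5433), which lay 7803 nt downstream of the control peak. The control peak lay 11.0% of the way along the gene body and the shMETTL3 peak 39.4%, so METTL14 was counted in both lists by different sites. Of the 2165 coding genes with 1 control peak, 20.2% had a peak in shTRA2A and 37.2% in shMETTL3.

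WTAP, the adaptor that binds the heterodimer, had the most control peaks among the genes without a knockdown peak. Its body (chr6:159726693-159756319) lies wholly inside the RefSeq body of SOD2, the mitochondrial superoxide dismutase, which is on the opposite strand. On WTAP's own strand there were 4 control peaks. They were at chr6:159748270-159748544 (275 nt, score 27.3, rank 1120), chr6:159748745-159748844 (100 nt, score 11.1), chr6:159755057-159755106 (50 nt, score 12.3) and chr6:159755532-159755606 (75 nt, score 12.6). The first 2 lay 73.3% and 74.6% of the way along the body, and the others lay 1238 and 751 nt from its 3′ end. The fifth peak, at chr6:159748576-159748625, was 50 nt wide and on the strand of SOD2, and its score of 80.6 (rank 91) was the highest in the WTAP body. It sat in the gap between the first 2 WTAP peaks, and which transcript it came from was not tested. Of all control peaks that touch a single coding body of known strand, 4.52% were on the strand opposite to the gene. All 5 peaks here also touch the SOD2 body, so that share leaves them out and is no background for the fifth peak. In neither knockdown list was there a peak in the WTAP body on either strand, and the nearest shMETTL3 peak on WTAP's strand was at least 302508 nt away. Among the 154 coding genes with exactly 5 control peaks, 27 (17.5%) had no peak in either knockdown list, and among the 255 genes with 4, WTAP's number on its own strand, 49 (19.2%). The genes nearest to WTAP in their counts over the 3 lists, at distance 0 on the log2(count + 1) scale, were TMCC1, COL8A1 and ZNF106, taken by best control score from 26 genes with the same counts.

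METTL16 (chr17:2415715-2511888) had 2 control peaks near its 3′ end and none in the knockdown lists. They were at chr17:2420467-2420566 (100 nt, score 14.7, rank 3439) and chr17:2420092-2420166 (75 nt, score 9.08, rank 7998), 4802 and 4415 nt from the 3′ end. Having no knockdown peak is frequent for genes with so few control peaks: 450 of the 1050 coding genes with 2 control peaks (42.9%) had none in either list. The METTL16 target MAT2A, the S-adenosylmethionine synthetase of most tissues, had 0 control, 2 shTRA2A and 3 shMETTL3 peaks. Among the 22 other m6A genes listed below, HNRNPA2B1 also had knockdown peaks (3 and 1) without a control peak. A link between the MAT2A peaks and METTL16 was not tested.

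**Figure D2:**
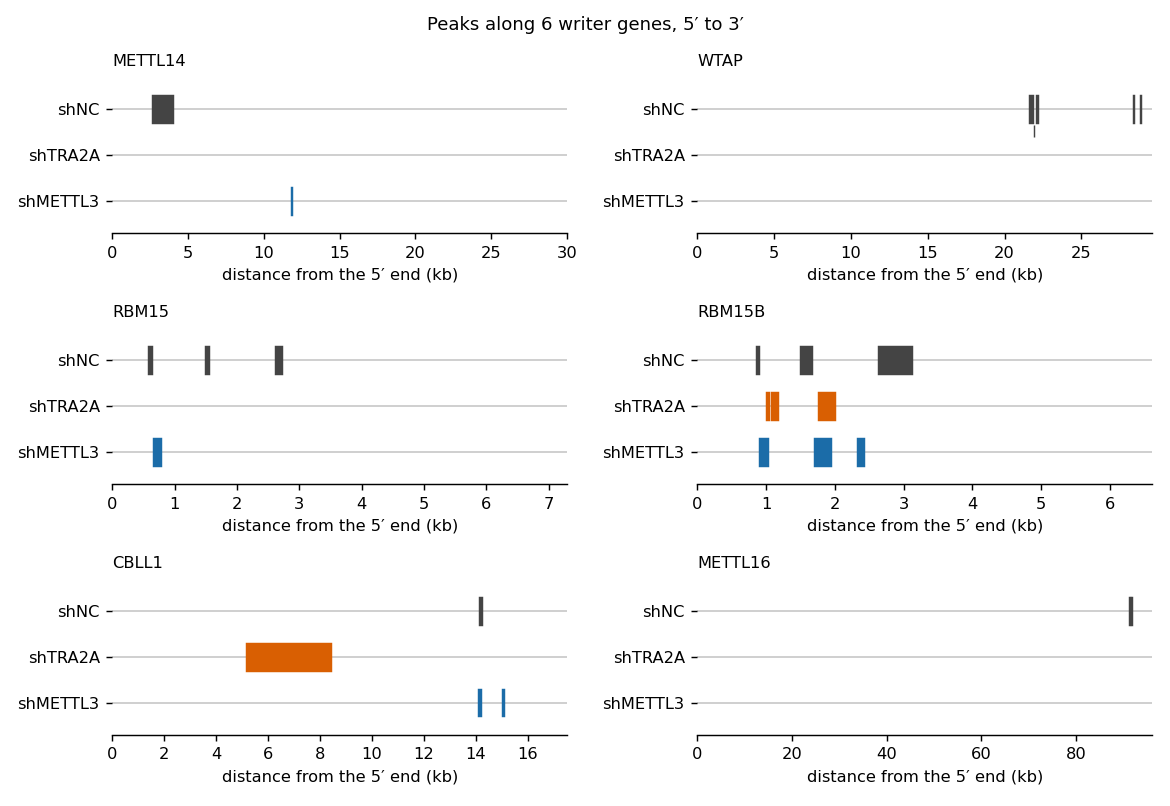
Peaks along the bodies of METTL14, WTAP, RBM15, RBM15B, CBLL1 and METTL16, drawn to scale as distance from the 5′ end (kb), with 1 row per list and outlines that keep the narrowest peaks visible. The half-height mark under the WTAP control row is the peak on the strand of SOD2, and in RBM15B the knockdown peaks lie between the control peaks.

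The RNA-binding paralogues differed in their peaks. RBM15 (chr1:110339377-110346677) had 3 weak control peaks, at chr1:110339956-110340005 (score 10.3), chr1:110340856-110340930 (score 10.0) and chr1:110341981-110342105, the last of them the strongest at rank 4885. It had no shTRA2A peak and 1 shMETTL3 peak at chr1:110340031-110340155 (score 9.01), which began 25 nt past the first control peak and shared no base with it. All 4 peaks had their midpoints in the first 36.5% of the body.

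RBM15B (chr3:51391285-51397908), the other paralogue, had 3 peaks in each list and no base shared between a control and a knockdown peak. Most control peaks had no overlap: over the whole control list 9.58% shared a base with an shTRA2A peak and 17.9% with an shMETTL3 peak. The control peaks were at chr3:51392135-51392184 (score 7.67, rank 9176), chr3:51392785-51392959 (score 16.9) and chr3:51393910-51394409 (500 nt, score 40.9, rank 467). The shTRA2A peaks were at chr3:51392285-51392334 (score 7.69), chr3:51392360-51392459 (score 7.81) and chr3:51393035-51393284 (score 14.4, rank 97 of 2736). Those of shMETTL3 were at chr3:51392185-51392309 (rank 523 of 5433), chr3:51392985-51393234 (score 8.58) and chr3:51393610-51393709 (score 5.47). The first shMETTL3 peak abutted the first control peak with a gap of 0 nt, and the strongest control peak was 200 nt from the nearest shMETTL3 and 625 nt from the nearest shTRA2A peak. The knockdown lists shared sites with each other: 2 of the 3 shTRA2A peaks overlapped an shMETTL3 peak, over 225 nt, which is 56.2% of the shTRA2A and 47.4% of the shMETTL3 length in this gene. RBM15 and RBM15B have the most peaks per kb of body among the 9 genes in shNC, 0.411 and 0.453, and also the shortest bodies, 7301 and 6624 nt. Of the 540 coding genes with 3 control peaks, 38.9% were found in shTRA2A and 61.7% in shMETTL3.

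CBLL1 (chr7:107744142-107761667), also called HAKAI, a ubiquitin ligase of the RING type, had 1 control peak at chr7:107758264-107758388 (125 nt, score 13.2, rank 4165). An shMETTL3 peak at chr7:107758239-107758338 (score 7.54) shared 75 nt with it, and a further shMETTL3 peak lay at chr7:107759139-107759238 (score 16.2, rank 508). The shTRA2A peak was elsewhere, 5710 nt upstream at chr7:107749301-107752553. It was 3253 nt wide and among the weakest of its list (score 7.36, rank 2422 of 2736). By overlap, then, the CBLL1 control peak was found in shMETTL3 and not in shTRA2A, although the gene had a peak in both. Among the 2165 coding genes with 1 control peak, 20.2% were found in shTRA2A and 37.2% in shMETTL3.

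VIRMA (chr8:94487689-94553469, formerly KIAA1429) had 7 control, 1 shTRA2A and 5 shMETTL3 peaks, all on the minus strand. In the control, a peak of 75 nt (score 14.9), a span of 1770 nt (score 22.5) and a span of 1881 nt (score 41.2, rank 461) followed each other between 34.1% and 38.4% of the body. Further control peaks lay at 40.7% (200 nt, score 9.70) and 52.1% (275 nt, score 18.3), and 2 of 75 nt lay 1113 and 1013 nt from the 3′ end (scores 11.0 and 10.8). The shTRA2A peak was a span of 1931 nt at chr8:94527326-94529256, with a score of 15.6, rank 74 in its list. It overlapped both control spans, but that of 1770 nt (chr8:94529207-94530976) only at its edge. In shMETTL3 a span of 1906 nt lay at the same place (score 7.13, rank 4243), and the strongest peak was 1 of 100 nt at 52.2% of the body (score 30.6, rank 69). The knockdown spans had the same 3′ boundary and differed by 25 nt at the other. An shMETTL3 peak overlapped 5 of the 7 control peaks and an shTRA2A peak 2 of the 7. The control peaks close to the 3′ end had no peak within 30216 nt in either knockdown list. VIRMA's counts of 7, 1 and 5 were shared by NSD1, a histone methyltransferase, RSF1, a chromatin remodelling factor, and AHNAK2, the nearest genes at distance 0. Among 52 coding genes with 7 control peaks, 71.2% were found in shTRA2A and 84.6% in shMETTL3.

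**Figure D3:**
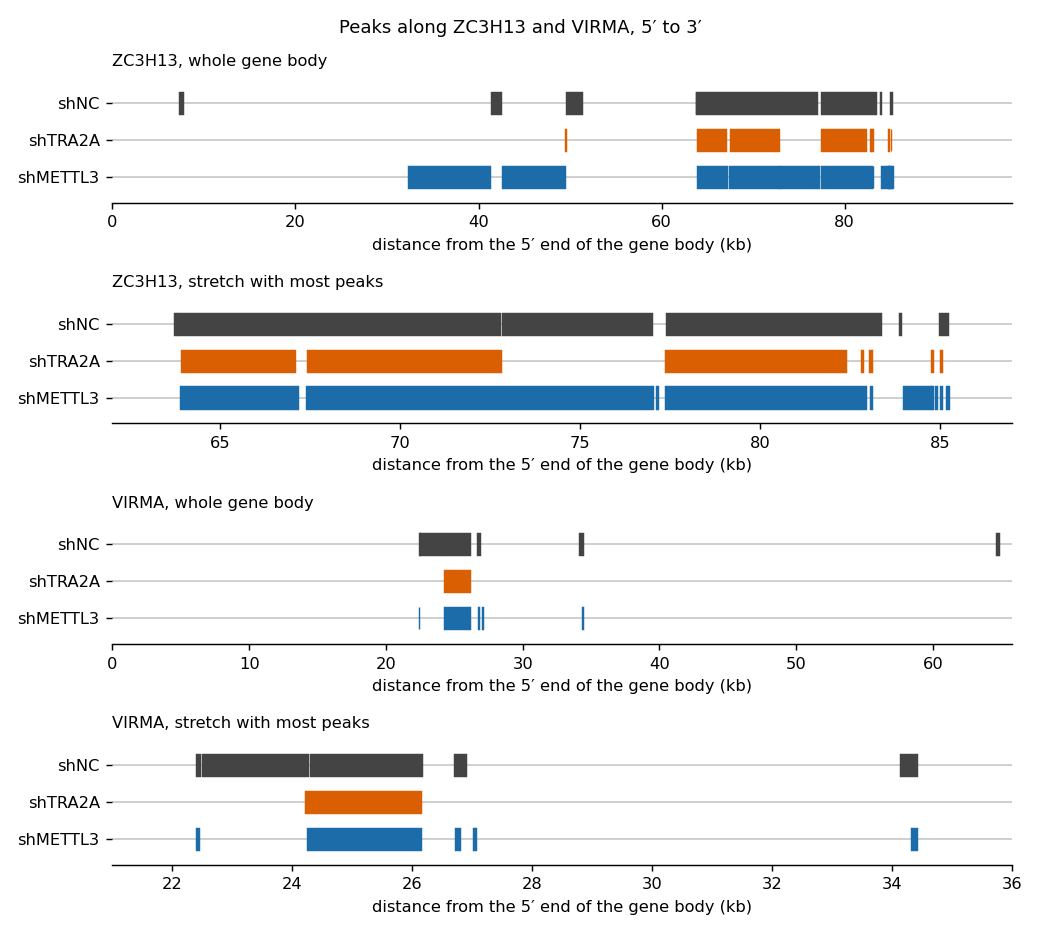
Peaks along ZC3H13 and VIRMA, drawn to scale as distance from the 5′ end of the body (kb), whole and enlarged, with 1 row per list. Most ZC3H13 peaks of each list lie in the enlarged stretch (6 of 9, 7 of 8 and 11 of 13), and shMETTL3 spans of 6838 and 9018 nt lie where shNC has no peak.

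ZC3H13 (chr13:45954465-46052746), the zinc finger subunit, led the writer genes in every list, with 9 control, 8 shTRA2A and 13 shMETTL3 peaks. By peak count it was at rank 41 of the coding genes in shNC, at rank 1 in shTRA2A together with FAT1, MACF1 and MEIS2, and alone at rank 1 in shMETTL3. Among the 23 coding genes with 9 control peaks, no other gene had more shMETTL3 than control peaks, and no other had 8 or more shTRA2A peaks. Both the class of 9 and the cut of 8 are ZC3H13's own counts, so this comparison favours it by construction. The excess in shMETTL3 over shNC moved with the setting. With peaks within 100 nt merged, ZC3H13 stood at 7 in shNC, 8 in shTRA2A and 7 in shMETTL3. With the better-scoring 50% of each list it had 8, 8 and 8, and with peaks of regular shape alone 3, 5 and 6. Its rank in shMETTL3 was 6 after merging and 10 with regular peaks, where its ranks in shNC and shTRA2A were 479 and 7. The genes with the nearest counts among 388 with at least 5 control peaks were PRRC2C (16, 6 and 10 peaks, distance 0.916), MEIS2 (6, 8 and 7, distance 0.957) and NUMA1 (5, 6 and 8, distance 1.04).

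The strongest ZC3H13 control peaks lay in the 3′ part of the gene. Spans of 8967 nt at chr13:45979987-45988953 (rank 48), 4149 nt at chr13:45975763-45979911 (score 79.6, rank 95) and 5982 nt at chr13:45969381-45975362 (score 118, rank 34) followed each other. A peak of 250 nt followed at chr13:45967537-45967786 (score 77.9, rank 99). Narrow and weaker control peaks lay at chr13:45988979-45989028 (score 13.3) and chr13:45968831-45968880 (score 10.0). The 5′ part held peaks of 451 nt at chr13:46045040-46045490 (score 19.0), 1109 nt at chr13:46010310-46011418 (score 24.0) and 1828 nt at chr13:46001419-46003246 (score 25.8). So wide a span can cross introns. Exons were not used here, nor were the blocks inside a peak, except to pick peaks of regular shape. Widths, covered lengths and overlaps run from the outer start to the outer end, so any gap between blocks is counted in. The spans measure where a peak begins and ends rather than methylated sequence.

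The knockdown lists returned to the same 3′ stretch of ZC3H13. In shTRA2A spans of 3175, 5392 and 5017 nt lay at chr13:45985679-45988853 (score 13.6), chr13:45979937-45985328 (score 8.13) and chr13:45970371-45975387 (score 21.1, rank 27 of 2736). In shMETTL3 the spans were of 3300, 5467, 4149 and 5582 nt, at chr13:45985579-45988878 (score 14.4), chr13:45979912-45985378 (score 41.4, rank 27), chr13:45975738-45979886 (score 41.1, rank 30) and chr13:45969806-45975387 (score 7.72). Narrower peaks flanked these spans, of 100 and 50 nt at chr13:45969631-45969730 and chr13:45969881-45969930 in shTRA2A (score 8.16 each) and of 50 nt at chr13:45969631-45969680 (score 8.24) and chr13:45975588-45975637 (score 10.9) in shMETTL3. Control and shMETTL3 both had a span of 4149 nt at the same place, shifted by 25 nt, and shTRA2A had none there. Beyond 60% of the body the peaks covered 19448 nt in shNC, 13834 nt in shTRA2A and 19617 nt in shMETTL3. Of the length covered in the whole gene in shTRA2A, 98.6% was also covered in shNC, while shTRA2A covered 60.1% of the control length.

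In the 5′ part the lists went apart. The shMETTL3 list had spans of 6838 nt at chr13:46003322-46010159 (score 37.5, rank 38) and 9018 nt at chr13:46011444-46020461 (score 7.87). Neither shared a base with a control peak, and they lay 75 and 25 nt to the 5′ side of the control peaks at chr13:46001419-46003246 and chr13:46010310-46011418. They brought the length covered before 60% of the body to 15856 nt, against 3388 nt in shNC and 100 nt in shTRA2A. The single shTRA2A peak there, at chr13:46003222-46003321 (score 10.1), overlapped only the 5′ edge of a control peak and abutted the shMETTL3 span of 6838 nt with a gap of 0 nt. The control peak closest to the 5′ end, at chr13:46045040-46045490, had no knockdown peak within 24578 nt.

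Near the 3′ end of the clustered peaks, a peak of 50 nt at chr13:45967937-45967986 had identical coordinates in shTRA2A (score 11.3) and shMETTL3 (score 30.8, rank 67) and lay 150 nt from the nearest control peak. It was the only peak of the 9 genes with identical coordinates in 2 lists. Over the whole lists 92 peaks were identical between shTRA2A and shMETTL3, 3.36% of the first list and 1.69% of the second. Other narrow shMETTL3 peaks crowded here, at chr13:45967512-45967586 (score 12.7), chr13:45967687-45967761 (score 6.22), chr13:45967837-45967886 (score 7.48) and chr13:45968012-45968780 (769 nt, score 20.7, rank 248). The second lay inside the control peak of 250 nt, as did the shTRA2A peak at chr13:45967687-45967736 (score 8.01), and the first overlapped it in part, so the strong control peak was overlapped in both knockdown lists by narrower peaks.

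Over all 9 genes, the control peaks that overlapped a knockdown peak were mostly strong ones. On the same strand, 6 of the 31 control peaks had 1 or more bases in common with an shTRA2A peak, 19.4% (7.45 to 37.5%), against 9.58% of all control peaks. For shMETTL3 it was 10 of 31, 32.3% (16.7 to 51.4%), against 17.9%. All 6 found in shTRA2A were among the 11 peaks in the highest score quintile of the control list, where 28.2% of all control peaks were found. In shMETTL3 6 of the same 11 were found, against 44.2% of that quintile. Of the 8 control peaks wider than 1000 nt, 5 were found in each knockdown list, and of the 14 peaks of 100 nt or less 0 in shTRA2A and 1 in shMETTL3. Over the whole control list these shares were 14.1% and 21.7% for the wide peaks, 13.7% and 27.6% for peaks of intermediate width, and 4.72% and 8.77% for the narrow. Without ZC3H13, 2 of 22 control peaks were found in shTRA2A, 9.09% (1.12 to 29.2%), and 6 of 22 in shMETTL3, 27.3% (10.7 to 50.2%). Of the control peaks without overlap, 7 of 21 lay within 100 nt of an shMETTL3 peak and 3 of 25 within 100 nt of an shTRA2A peak. Of all control peaks without overlap, 5.90% and 3.04% did, and the shMETTL3 list is the longer. Some overlaps were contacts at an edge. When overlap had to reach 50% of the narrower peak, 4 of the 31 control peaks were found in shTRA2A and 9 in shMETTL3. The share over all control peaks is not given for that rule.

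Seen from the knockdown lists, 8 of the 13 shTRA2A peaks were on a control peak, 61.5% (31.6 to 86.1%), against 33.8% of that list, and 7 of the 8 lay in ZC3H13. Of the 25 shMETTL3 peaks 12 were on a control peak, 48.0% (27.8 to 68.7%), against 32.7%, and 7 of the 12 lay in ZC3H13. Without ZC3H13 the counts were 1 of 5 and 5 of 12. Between the knockdown lists, 10 of the 13 shTRA2A peaks shared a base with an shMETTL3 peak, 76.9%, against 23.8% of the shTRA2A list. These 10 lay in ZC3H13 with 7, RBM15B with 2 and VIRMA with 1. Peaks of the same gene are not independent, so the intervals are too narrow, and with more bases covered a span also overlaps more often.

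**Figure D4:**
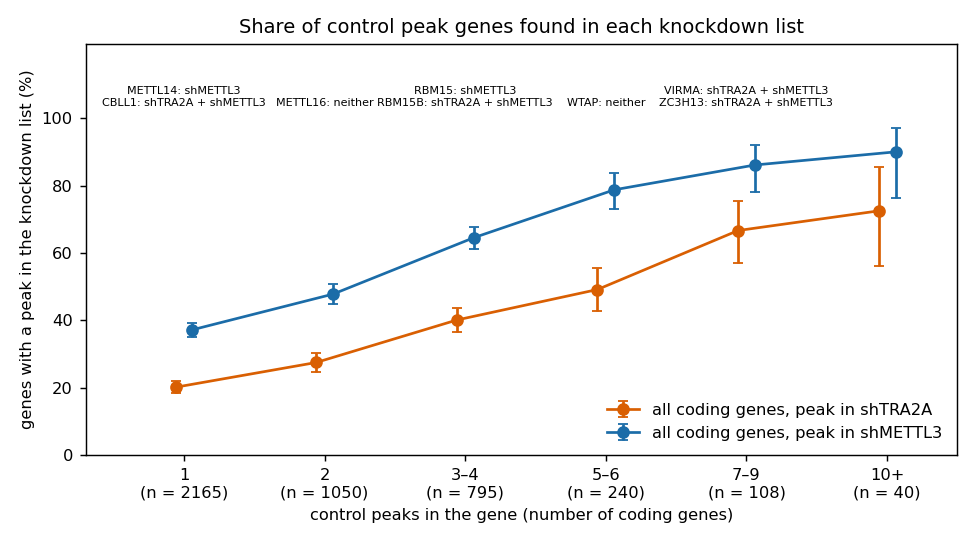
Share of coding genes with a peak in each knockdown list (vertical axis, %) by number of control peaks in the gene, with exact 95% intervals as error bars. The share climbs from 20.2% to 72.5% for shTRA2A and from 37.2% to 90.0% for shMETTL3, and the names give the lists in which each writer gene had a peak.

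By score the writer peaks were spread over much of each list, with some among its best. Among the 100 best control peaks were 5 writer peaks, 4 in ZC3H13 and the WTAP peak on the strand of SOD2. Among the 100 best shTRA2A peaks were 3, in ZC3H13, VIRMA and RBM15B. The 100 best shMETTL3 peaks held 5, 4 in ZC3H13 and 1 in VIRMA. METTL14, RBM15, CBLL1 and METTL16 had no peak among the best 100 of any list. These were 5 of 31, 3 of 13 and 5 of 25 writer peaks. The best 100 were taken from 9206, 2736 and 5433 peaks, so in each list they held a larger share of the writer peaks than of all peaks. In shNC and shMETTL3 this came mostly from ZC3H13. Writer peaks with midpoints in the last 25% of the gene body were 11 of 31 in shNC, 5 of 13 in shTRA2A and 11 of 25 in shMETTL3. For all peaks touching a single coding body of known strand the shares were 54.6%, 45.6% and 46.9%. That class leaves out the peaks of WTAP, which also touch SOD2, and of VIRMA, whose strand came from its peaks. No peak in any list touched the RefSeq windows from 250 nt before to 50 nt after the starts of the 8 genes matched in that table. The share over all coding genes is not given for these windows, so this count has no background to be read against.

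**Figure D5:**
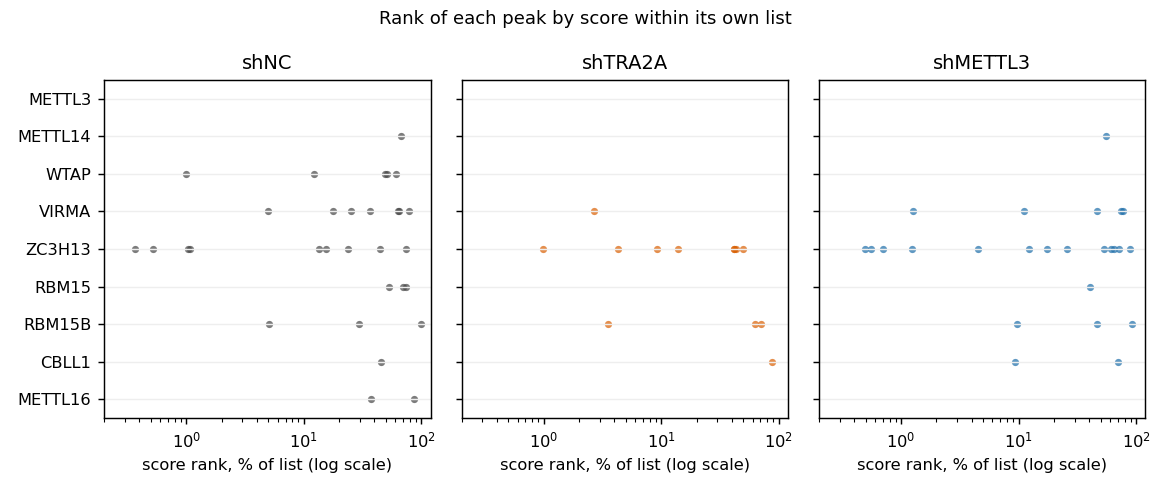
Rank of every peak of the 9 genes by score within its own list, as a percentage of the list on a log axis, with strong peaks to the left. Ranks come from lists of different lengths and show no change between conditions. ZC3H13 reaches rank 34 in shNC, 27 in shTRA2A and 27 in shMETTL3.

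The wider m6A machinery had fewer peaks by gene. Of 22 other listed genes, 11 had a control peak, of which 2 were found in shTRA2A and 6 in shMETTL3, and 9 had no peak in any list. Over all coding genes, as given above, 22.0% had a control peak, of which 28.7% and 48.6% were found. Among the demethylases, which remove the mark, FTO had 1 control peak and none in the knockdowns, and ALKBH5 had none. Of 13 readers, proteins that bind m6A or prefer methylated RNA, 3 had a peak in shTRA2A, 7 in shMETTL3 and 8 in the control. The nuclear reader YTHDC1 (5, 3 and 1 peaks) and the cytoplasmic reader YTHDF2 (4, 1 and 1) had peaks in every list. Of the other adenosine methyltransferases and their partners, PCIF1, which methylates the cap-adjacent adenosine, had 2 control peaks, and METTL5, TRMT112 and ZCCHC4 had none. In S-adenosylmethionine metabolism AHCY had 1 control peak and MAT2B none. TRA2A, the other hairpin target, had 0, 1 and 0 peaks. Of 6 glial and mesenchymal markers, 5 had a control peak, VIM being the exception, and 0 of 9 markers of immune, endothelial, neuronal and oligodendrocyte cells had a peak in any list.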

How the data were processed

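The authors deposited peak lists in 12-column BED form, with a score per peak from their peak caller, whose name, scale and thresholds no source used here states. The submitters' processing notes name the build GRCh38, featureCounts 2.0.1, HISAT2 2.2.1 and SAMtools. Of 4 deposited lists 1 matched no label, equalled the shTRA2A list and was not used (1 column of values). Positions were turned to count from 1 and peaks were matched to 20033 coding gene bodies of RefSeq (GRCh38.p14) by at least 1 shared base. Strand came from RefSeq's promoter table, and for VIRMA from its peaks. Peaks were taken from outer start to outer end, without the gaps between their blocks being removed. Overlap between lists needed 1 shared base on the same strand, was tested on simulated data and differed from bedtools 2.31.1 for 0 peaks. Python 3.11.15, numpy 2.4.6, pandas 2.3.3, scipy 1.17.1 and matplotlib 3.10.9 were used. The 9 genes are named whatever their values. For each with at least 5 control peaks the 3 genes nearest in log2(count + 1) over the lists are named, with ties broken by the best control score. Genes named for sharing a rank with ZC3H13 were chosen after their values were seen. The genes, the lists and the rules were chosen with earlier results of these data known. Alternatives changed which peaks count, how they are joined to genes and what counts as overlap. Without replicates nothing was tested between conditions.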

Additional observations from a re-analysis of the deposited data

How the results depend on the processing

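Of 84 comparisons of a summary count with an alternative setting, 65 stayed within 1.5 times the reported count and 19 did not. With the better-scoring 50% of each list the 9 genes held 19 control and 15 shMETTL3 peaks, 5 control peaks were overlapped in shMETTL3, and 6 shMETTL3 peaks were on a control peak. With each list limited to as many peaks as the shortest holds, there were 14 control and 15 shMETTL3 peaks, 4 genes with a control peak, 3 of these with an shMETTL3 peak, 4 control peaks overlapped in shMETTL3, and 5 shMETTL3 peaks on a control peak. With peaks of regular shape alone (1 block, a multiple of 25 nt wide, at most 1000 nt) there were 8 shTRA2A peaks in 2 genes, both with a control peak, 1 control peak overlapped in shTRA2A and 5 in shMETTL3, and 1 shTRA2A and 6 shMETTL3 peaks on a control peak. With midpoints within 100 nt in place of a shared base, 2 control peaks were matched in shTRA2A and 2 shTRA2A peaks in shNC. Of 20033 coding genes, 1755 had a control peak with lists cut to the shortest, and 1312 an shTRA2A peak of regular shape. Shares over all control peaks are not given for these settings. Of the peak counts of single genes, 29 moved by more than 1.5 times and 133 did not. The 133 include genes with 0 peaks in a list, such as METTL3, whose count could not move under settings that only drop or merge peaks. They are therefore no measure of stability. Settings that drop peaks lower a count by construction, and the cause of the other shifts was not tested. The alternatives for strand, for gene assignment, for merging and for an overlap of 50% moved no summary count by more than 1.5 times. No paired analysis was possible because each condition has 1 peak list. Unknown read depth limits what a missing peak shows.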
